A study of Mus musculus with 11 samples.

Results

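The angiotensin system was followed through 4 genes in the mandibular arch of mouse embryos: Agtr2, Agtr1a, Agt and Ace. Every probe set that the array annotation gives to one of these symbols alone was taken, which came to 5 of 34958 probe sets with a single symbol and of 45101 on the array. Agtr2 (1415832_at), Agtr1a (1436739_at) and Agt (1423396_at) have 1 probe set each, and Ace has 2 (1427034_at and 1451911_a_at). The 4 genes, of 18194 named on the array, were chosen by the high Agtr2 signal of these same arrays at E11.5 and E14.5, so their levels across those stages are described without a test.

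The tissue came from ICR mice, a wild-type outbred strain, with no allele or agent in any group. The arch was cut into a medial piece from its distal end and a lateral piece with the remainder, and the stated aim was to compare these pieces. Medial tissue was measured on 1 array at E9.7, 3 at E10.5, 2 at E11.5 and 1 at E14.5, and lateral tissue on 1 array at E9.7 and 3 at E10.5. The labels call the E14.5 sample tongue and the front part of the medial region, so stage and dissection cannot be told apart there. Each time point drew on 40 embryos for its pool of RNA, and the labels do not say whether replicate arrays came from separate pools, so p-values measure the spread between arrays, which may be technical.

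Angiotensinogen, the product of Agt, is the precursor from which renin releases angiotensin I, and angiotensin-converting enzyme, the product of Ace, trims this to angiotensin II. Angiotensin II acts on type 1 receptors, which rodents encode in Agtr1a and Agtr1b, and on the type 2 receptor encoded by Agtr2. The type 1 receptor is best known for raising blood pressure and for growth signals, while the type 2 receptor is known for its high RNA level in fetal mesenchyme and its decline after birth.

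Values are log2 signals after quantile normalization of the deposited values across the 11 arrays. The median deposited log2 signal was 5.20 to 5.73 on 9 arrays but only 2.37 on the first medial array of E10.5 and 2.47 on the first of E11.5, so values without these arrays are given beside the main results that rest on them. All 6 markers of arch mesenchyme lay above the dim range described next on every array, and all 8 markers of differentiated muscle did so at E14.5. As a measure of dim signal, 44 probe sets of olfactory receptors, which serve smell in the nasal epithelium, had a 95th percentile of 4.10 to 4.55 (log2) on the arrays. Levels below that percentile were read as not above background.

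Agtr2 lies on chromosome X at 21484624 to 21488833, Agtr1a on chromosome 13 at 30336356 to 30382867, Agt on chromosome 8 at 124556587 to 124569706 and Ace on chromosome 11 at 105967948 to 105989964 (RefSeq, GRCm38.p6). The promoters of the 3 members in the RefSeq promoter table, from 250 bases before to 50 after the start of transcription, are shown because the gene with the stage pattern and the genes without one can be set side by side. Agtr2 is chrX:21484374-21484673 on the plus strand, Agt is chr8:124569657-124569956 on the minus strand, and the first of 2 Ace starts is chr11:105967698-105967997 on the plus strand. Each runs 5′ to 3′, and capitals mark the TATA box letters TATAA, the E-box letters CANNTG (which muscle regulatory factors and other basic helix-loop-helix proteins bind) and the GC box letters GGGCGG, searched on both strands.
Agtr2: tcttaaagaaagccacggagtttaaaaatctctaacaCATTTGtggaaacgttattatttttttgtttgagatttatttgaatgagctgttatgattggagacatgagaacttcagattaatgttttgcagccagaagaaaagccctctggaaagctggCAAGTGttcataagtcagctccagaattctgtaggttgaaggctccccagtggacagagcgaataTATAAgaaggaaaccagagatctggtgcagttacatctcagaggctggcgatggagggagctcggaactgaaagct
Agt: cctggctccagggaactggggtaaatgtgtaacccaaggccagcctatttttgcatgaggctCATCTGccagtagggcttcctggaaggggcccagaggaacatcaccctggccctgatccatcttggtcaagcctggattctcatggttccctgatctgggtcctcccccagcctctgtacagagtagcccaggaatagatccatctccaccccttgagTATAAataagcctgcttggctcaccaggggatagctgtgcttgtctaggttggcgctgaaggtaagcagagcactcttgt
Ace: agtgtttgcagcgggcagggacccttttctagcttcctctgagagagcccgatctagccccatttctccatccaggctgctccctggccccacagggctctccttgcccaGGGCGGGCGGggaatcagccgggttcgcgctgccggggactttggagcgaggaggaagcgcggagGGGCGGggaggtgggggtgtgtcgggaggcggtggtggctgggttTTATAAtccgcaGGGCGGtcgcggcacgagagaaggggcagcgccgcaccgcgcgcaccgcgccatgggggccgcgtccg

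The Agtr2 promoter was poor in G and C (41.3%), at the 13.4 percentile of 32851 promoters, whose median was 52.7%. It held TATAA at position -26 from the start, CANNTG at -213 and -91, the letters CCAAT at -156 and no GGGCGG. The Agt promoter had 54.7% G and C, 1 CpG, TATAA at -30 and CANNTG at -188. The Ace promoter had 69.7% G and C, at the 90.4 percentile, and 29 CpGs, against 5 CpGs in Agtr2 and a median of 7 over all promoters. Ace held GGGCGG at -140, -136, -75 and -18, where the first pair overlap, and TATAA at -30 and -29 on opposite strands over shared letters. TATAA occurs in 24.9% of all promoters of this length, CCAAT in 37.4%, CANNTG in 72.3% and GGGCGG in 35.7%, so most of these matches are common. The CArG box, the serum response factor motif of many muscle genes, occurs in 1.63% of promoters and in none of these 3.

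Agtr2 RNA was not above background before E11.5 and was well above it from then on. In medial tissue its log2 signal was 2.79 at E9.7, then 3.21, 3.33 and 3.32 at E10.5, then 8.63 and 9.15 at E11.5, and 11.96 at E14.5. In lateral tissue it was 2.89 at E9.7 and 3.01, 2.71 and 2.76 at E10.5. The 3 arrays of medial E11.5 and E14.5 tissue stood far above the other 8, and only these 3 exceeded the olfactory receptor percentile. The order of the groups was therefore medial E14.5, medial E11.5 and then the E10.5 and E9.7 groups. Among these last, both E9.7 values lay inside the range of the lateral E10.5 arrays, and medial E10.5 lay just above them.

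**Figure D1:**
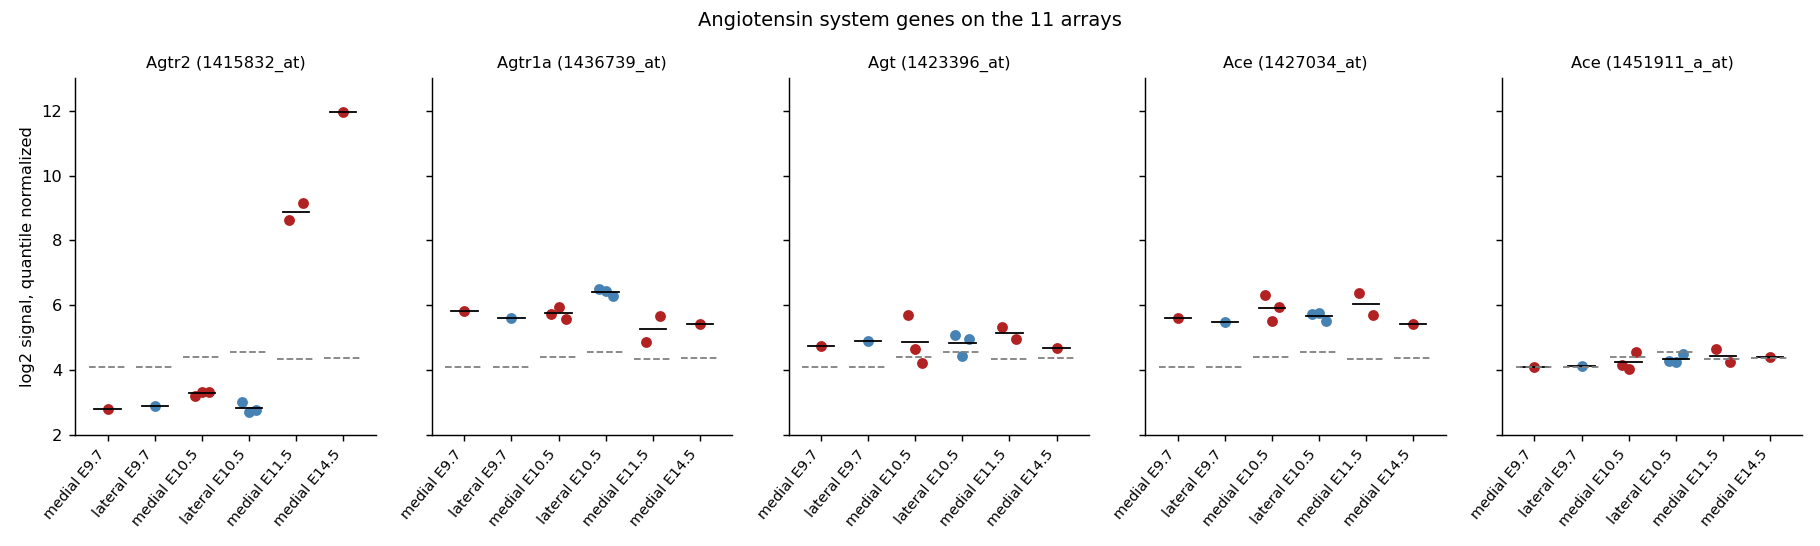
Quantile normalized log2 signal of the 5 probe sets on each of the 11 arrays (points; red medial, blue lateral), with group means (black lines) and the highest 95th percentile of 44 olfactory receptor probe sets on the arrays of each group (dashed grey). Agtr2 lies below the dashed lines before E11.5 and reaches 11.96 at E14.5, while the other genes stay between 4.04 and 6.50 on every array.

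Agtr2 averaged 8.89 ± 0.37 (SD, n = 2) in medial E11.5 tissue and 3.29 ± 0.07 (SD, n = 3) in medial E10.5 tissue, a log2 difference of 5.60. The arrays did not overlap, as those of 14.8% of tested genes did not in this direction and of 13.6% in the other; nothing is read from this. Because the E10.5 signal was not above background, the fold is a bound: each E10.5 array was set at the higher of its own Agtr2 value and its olfactory receptor percentile, and E11.5 was then at least 24.6-fold higher, or 4.62 on the log2 scale. No p-value is given, since this contrast chose the gene.

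Medial E14.5 tissue exceeded medial E11.5 tissue by a further 3.07 on the log2 scale (8.42-fold, E14.5 n = 1). On the same bound, the E14.5 array was at least 207-fold above medial E10.5 tissue and at least 232-fold above medial E9.7 tissue. Agtr2 was the 1 member of 4 that stood at least 2-fold beyond every E11.5 array, where 11% of 12566 genes were higher by that measure and 14.6% differed in either direction. Since the stages chose the gene, nothing is read from that count.

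Agtr2 was higher at E11.5 with and without the arrays of low median. The deposited Agtr2 values, with no scaling, were 1.31, 3.68 and 3.91 at medial E10.5, 6.19 and 9.32 at medial E11.5 and 12.58 at E14.5. The lowest medial E10.5 and medial E11.5 values came from the arrays of low median. Without both such arrays the E11.5 minus E10.5 difference was 5.82. The arrays were also clustered by the signal of 45 spiked-in control probe sets and cut into 4 groups, a chosen number. The labels do not give the origin of these groups. Within a group of such arrays, medial E11.5 minus medial E10.5 was 5.81 (1 array each) and, between the low arrays, 5.42. The E14.5 array was alone in its control-signal group. For every E14.5 difference, stage and control-signal group therefore cannot be told apart.

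**Figure D2:**
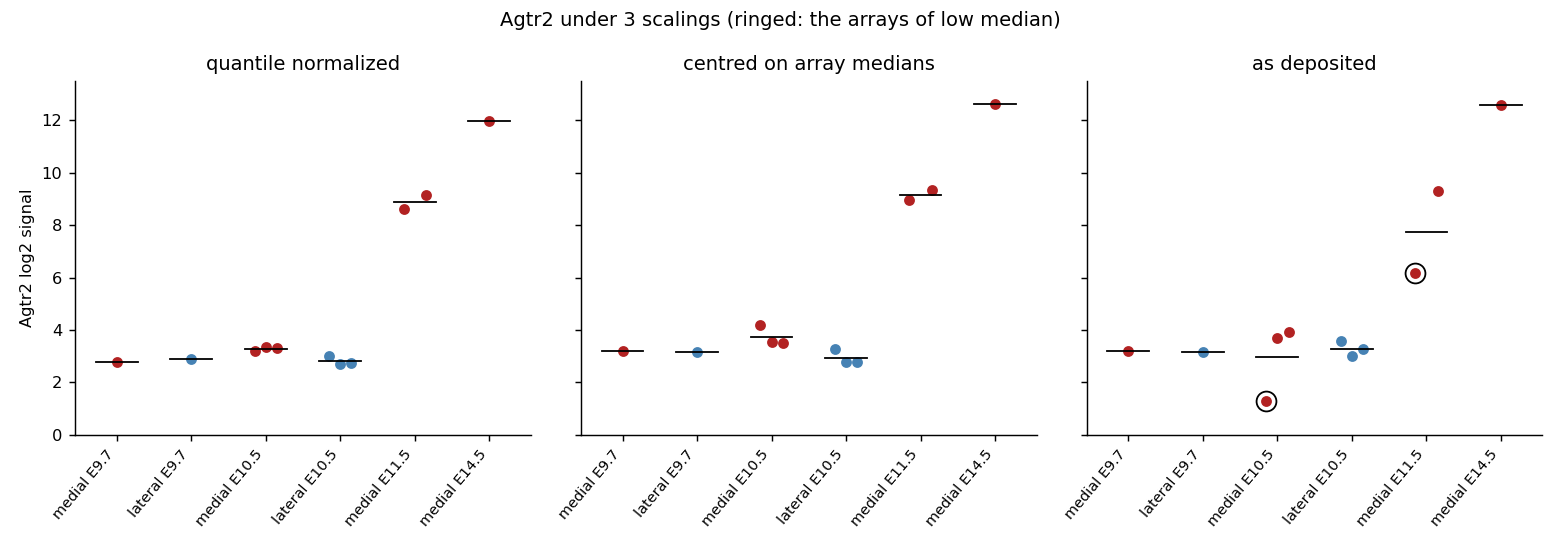
Agtr2 log2 signal on each array (points; red medial, blue lateral; black lines are group means) after quantile normalization, after centring each array on its median, and as deposited. In every panel the lowest E11.5 array exceeds the highest E10.5 array; the ringed arrays of low median sit lowest in their groups as deposited.

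At E10.5 Agtr2 was below background on all 6 arrays, at 3.29 ± 0.07 in medial and 2.82 ± 0.16 in lateral tissue (SD, n = 3 each), so no difference between the pieces is read from it. It met the filter on dim genes only through its E11.5 arrays. The sign of the difference also depended on the scaling: it was 0.46 on quantile normalized and -0.32 on deposited values.

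Agtr1a, the type 1 receptor, ran otherwise: its signal was highest in lateral E10.5 tissue. Medial tissue had log2 signals of 5.83 at E9.7, 5.72, 5.96 and 5.59 at E10.5, 4.87 and 5.68 at E11.5 and 5.43 at E14.5. Lateral tissue had 5.59 at E9.7 and 6.50, 6.43 and 6.28 at E10.5. All 11 arrays were above the olfactory receptor percentile. Below lateral E10.5, the groups followed in the order medial E9.7, medial E10.5, lateral E9.7, medial E14.5 and medial E11.5, and no neighbours among them differed beyond the range of the replicated groups.

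Agtr1a averaged 5.76 ± 0.19 in medial E10.5 tissue and 6.40 ± 0.11 in lateral E10.5 tissue (SD, n = 3 each). The log2 difference was -0.65 ± 0.20 (SE), and limma gave an adjusted p of 0.132, which missed the threshold. All medial arrays lay below all lateral arrays, as those of 12.9% of tested genes did, and 12.1% were apart the other way. The adjusted p fell below the threshold in 5 of 19 alternatives (lowest 0.0209, highest 0.589), among them the fit of these 2 groups alone (0.0286). Leaving out either medial E11.5 array repeated that fit, since the spread then came from the same E10.5 arrays alone. These alternatives are therefore a single result and not separate support. Leaving out an E10.5 array gave no call. Within control-signal groups the difference was -0.55 and -0.77, below 0 in both, and it was -0.63 without the arrays of low median.

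Over time, Agtr1a was 5.27 ± 0.57 in medial E11.5 tissue (SD, n = 2) and 5.76 ± 0.19 in medial E10.5 tissue (SD, n = 3), a log2 difference of -0.48 with overlapping arrays. It was -0.08 without the low E11.5 array, at 4.87, and -0.09 without both arrays of low median. Lateral E10.5 tissue exceeded the lateral E9.7 array by 0.81, which stayed under the 2-fold limit used for comparisons with 1 array on a side and reached by 1.34% of genes (0.949% higher, 0.39% lower). Agt and Ace differed there by -0.06 and 0.19, and Agtr2 was below background. Agtr1b, the second rodent type 1 receptor gene, had group means of 2.71 to 3.10 and was nowhere above background.

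Agt and Ace varied between arrays more than between groups. Agt had medial log2 signals of 4.75 at E9.7, 5.69, 4.65 and 4.23 at E10.5, 5.32 and 4.96 at E11.5 and 4.69 at E14.5. In lateral tissue it had 4.88 at E9.7 and 5.07, 4.45 and 4.95 at E10.5. The highest and the lowest value were both medial E10.5 arrays, so no group stood outside that spread, and 9 of 11 arrays exceeded the olfactory receptor percentile. Medial E10.5 averaged 4.85 ± 0.75 and lateral E10.5 averaged 4.82 ± 0.33 (SD, n = 3 each), a log2 difference of 0.03 ± 0.34 (SE) with an adjusted p of 0.972 by limma. Leaving out medial E10.5 replicate 1, a low array, turned it to -0.38.

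Ace was measured by 2 probe sets. The brighter one, 1427034_at, had medial log2 signals of 5.60 at E9.7, 6.31, 5.51 and 5.96 at E10.5, 6.38 and 5.69 at E11.5 and 5.40 at E14.5, and lateral signals of 5.48 at E9.7 and 5.72, 5.76 and 5.52 at E10.5. Its highest values, 6.38 and 6.31, came from the arrays of low median, and all 11 arrays were above background. Medial E10.5 minus lateral E10.5 was 0.26 ± 0.23 (SE) with an adjusted p of 0.646 by limma, and 0.07 without the arrays of low median. The other probe set, 1451911_a_at, had group means of 4.08 to 4.45 and exceeded background on 7 of 11 arrays. Medial E11.5 minus medial E10.5 was 0.29 for Agt and 0.11 for Ace by 1427034_at, within the spread of the arrays. Without the arrays of low median these values were 0.52 and -0.04.

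None of the 4 members, Agtr2 without signal above background among them, was called between medial and lateral tissue at E10.5, where 4.63% of 11968 genes were (554, with 1927 at an unadjusted p below 0.05). Agtr1a had an unadjusted p of 0.0104. At E9.7, with 1 array per piece and no test, the medial minus lateral difference was 0.24 for Agtr1a, -0.13 for Agt and 0.12 for Ace, with Agtr2 below background. None reached 2-fold, as did 1.76% of 11252 genes (1.09% higher, 0.667% lower). Medial E10.5 minus medial E9.7 was 0.32 for Ace, 0.10 for Agt and -0.08 for Agtr1a. Without the low E10.5 array it was 0.13 for Ace and -0.31 for Agt. None of the 4 reached 2-fold, as did 0.977% of all genes (0.626% higher, 0.351% lower). Over the 11 arrays Agtr2 had a Pearson r of -0.62 with Agtr1a, 0.10 with Agt and 0.01 with Ace, which describes arrays that share tissue and scaling.

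The wider system held enzymes, receptors, receptor partners, coupling proteins, kinin genes and mineralocorticoid genes. Of 41 such genes 37 had a probe set here and 27 passed the filter. Between medial and lateral tissue at E10.5, 1 of these 27 rose, as did 2.82% of all genes, and 1 fell, as did 1.8%. Their median log2 difference was -0.06, and that of all tested genes -0.01. Between medial E11.5 and medial E10.5, 1 rose and 3 fell, where 4.32% and 2.6% of all genes did (6.92% in all), with medians of -0.07 and 0.003.

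The gene that rose in both was Mme, neprilysin, a membrane peptidase that converts angiotensin I to angiotensin 1-7 and degrades other peptides. Its log2 signal in medial tissue was 6.78 at E9.7, then 7.57, 8.74 and 8.82 at E10.5, 9.86 and 10.24 at E11.5 and 8.60 at E14.5. In lateral tissue it was 5.79 at E9.7 and 6.22, 6.28 and 6.04 at E10.5. The arrays did not overlap in either comparison. Medial exceeded lateral E10.5 tissue by 2.19 ± 0.30 (SE, adjusted p = 0.00307 by limma), and a call was made in 20 of 21 alternatives; without the arrays of low median the difference was 2.60. Medial E11.5 exceeded medial E10.5 by 1.67 ± 0.34 (SE, adjusted p = 0.0175), which held in 17 of 21 (1.46 without the arrays of low median). It was lost without medial E11.5 replicate 1 (0.0614) and without replicate 2 (0.113), which leave 1 array in that group. The second Mme probe set gave 8.17 and 8.27 at medial E11.5 and 5.53, 6.75 and 6.98 at medial E10.5.

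Markers of several other cell types also differed between the pieces. Of the epithelium markers 4 of 6 were higher in medial than in lateral E10.5 tissue and none was lower, and their summed linear signal was 2064 to 2335 in medial and 1002 to 1145 in lateral tissue. All 6 were above background on every E10.5 array. Of the cartilage markers 2 of 3 tested were lower, with sums of 2911 to 3522 in medial and 4050 to 4305 in lateral tissue. Connective tissue and tendon markers had 3 of 6 tested higher and 1 lower, with a median log2 difference of 1.09 and sums of 5063 to 5899 in medial and 3825 to 4444 in lateral tissue. Endothelium markers had 2 of 6 higher, with sums of 928 to 974 in medial and 627 to 678 in lateral tissue. Neuron markers had 1 of 3 tested higher, with sums of 736 to 977 in medial and 246 to 265 in lateral tissue. Their median log2 difference was -0.07, so the higher sum does not describe the list as a whole. Of the glia markers 1 of 2 tested was lower, with a median of -1.17. Glia sums were 77 to 94 in medial and 142 to 151 in lateral tissue. The part of these cells in the Mme difference was not tested. In such bulk tissue, fewer cells of a type and less RNA per cell cannot be told apart.

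The gene that fell between the pieces was Zbtb16, a zinc finger protein reported to bind the type 2 receptor. It had 5.86, 5.51 and 5.35 in medial E10.5 tissue and 7.36, 7.54 and 7.67 in lateral E10.5 tissue, a log2 difference of -1.95 ± 0.17 (SE, adjusted p = 0.000315 by limma). The groups were far apart, and the call held in 21 of 22 alternatives (-2.10 without the arrays of low median). At E9.7 the single medial array was also lower, at 7.09, against 8.60 in lateral tissue. Medial E10.5 tissue was more than 2-fold below the medial E9.7 array, with a log2 difference of -1.51.

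Hsd11b2, which inactivates glucocorticoids and so guards the mineralocorticoid receptor, fell with stage in medial tissue. Its log2 signals were 7.45 and 7.97 at medial E11.5 and 8.49, 8.85 and 9.38 at medial E10.5, with a difference of -1.20 ± 0.25 (SE, adjusted p = 0.0202 by limma, called in 17 of 20 alternatives). Without medial E11.5 replicate 1 the adjusted p was 0.145, and without the arrays of low median the difference was -1.15. At E14.5 it was lower again, at 5.21, a difference of -2.50 from medial E11.5. At E9.7 the medial array had 8.85 and the lateral array 7.07, and lateral E10.5 tissue exceeded that lateral array by 1.02. The E10.5 difference of 0.81 between medial and lateral tissue had an adjusted p of 0.0888 and was called in 6 of 20 alternatives.

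Rnpep, aminopeptidase B, and Mtus1, which encodes a protein that binds the type 2 receptor, fell narrowly at E11.5. Rnpep had 6.88 and 6.84 in medial E11.5 tissue and 7.32, 7.27 and 7.49 in medial E10.5 tissue (-0.50 ± 0.12 SE, adjusted p = 0.0424 by limma). Mtus1 had 4.00 and 4.61 in medial E11.5 tissue and 5.44, 5.29 and 5.28 in medial E10.5 tissue (-1.03 ± 0.25 SE, adjusted p = 0.0443 by limma). The first of these E11.5 values lay below the olfactory receptor percentile of its array (4.34), so the Mtus1 difference is not exact. The groups did not overlap for either, but the call held in 4 of 20 alternatives for Rnpep and in 7 of 18 for Mtus1. Leaving out any array ended the Mtus1 call (highest adjusted p 0.252), except for lateral replicates 1 and 3 and E11.5 replicate 2, and leaving out any array ended that of Rnpep (highest 0.131).

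Of the other receptors, Atp6ap2, the prorenin receptor, had group means of 9.48 to 9.80 up to E11.5 and was highest at E14.5, at 10.17. That was 1.29-fold above medial E11.5. Its other probe sets were also highest at E14.5, at 9.27 and 9.76. Mas1, the angiotensin 1-7 receptor, had group means of 2.58 to 2.92, and the bradykinin receptor Bdkrb1 3.59 to 4.12. Mas1 lay below the olfactory receptor percentile in each group. None of the 9 coupling genes, among them the G protein subunits Gnaq, Gna11 and Gnai1, was called in either tested comparison.

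At E14.5 the wider list shifted more, as did the array as a whole. Of 30 measured genes 6 were at least 2-fold above both medial E11.5 arrays and 3 below, where 11% and 3.63% of all genes were. Genes entered this count if any array of either group reached a log2 signal of 4.86, and the same rule held for all genes. Enpep, Nr3c2 and Cma1 entered through the E14.5 array alone, so nothing is read from the number higher. The median log2 difference was 0.28 in the list and 0.08 over all genes. With a single E14.5 array, alone in its control-signal group, there is no test, no replicate check and no comparison within such a group.

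Enpep, aminopeptidase A, which turns angiotensin II into angiotensin III, was the largest of these. It had 7.51 at medial E14.5, against 2.05 and 2.52 at medial E11.5, both below background, and was at least 9.37-fold higher. Nr3c2, the mineralocorticoid receptor, had 6.51 at E14.5, against 3.14 and 3.07 at E11.5, at least 4.70-fold higher. Cma1, mast cell chymase, an alternative source of angiotensin II, had 5.56 at E14.5, against 4.13 and 3.72, at least 2.42-fold higher. These 3 genes were above background at E14.5 and not at E11.5.

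Mtus1, at 6.82 in E14.5 tissue, was 2.51 above its E11.5 mean on the log2 scale. Gnai1, an inhibitory G protein subunit, was 2.22 above and Gna11 1.21 above. A second Gna11 probe set had 9.10 at E14.5, against 8.22 and 8.67 at E11.5, which is not 2-fold beyond both arrays, so the Gna11 count rests on the brighter probe set. Hsd11b2, Mme and Prcp were lower at E14.5, with log2 differences of -2.50, -1.45 and -1.22. Prcp, prolylcarboxypeptidase, removes the last residue of angiotensin II. A second Prcp probe set went the other way, at 6.39 at E14.5, against 6.17 and 6.25 at E11.5, so the Prcp count rests on 1 probe set.

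**Figure D3:**
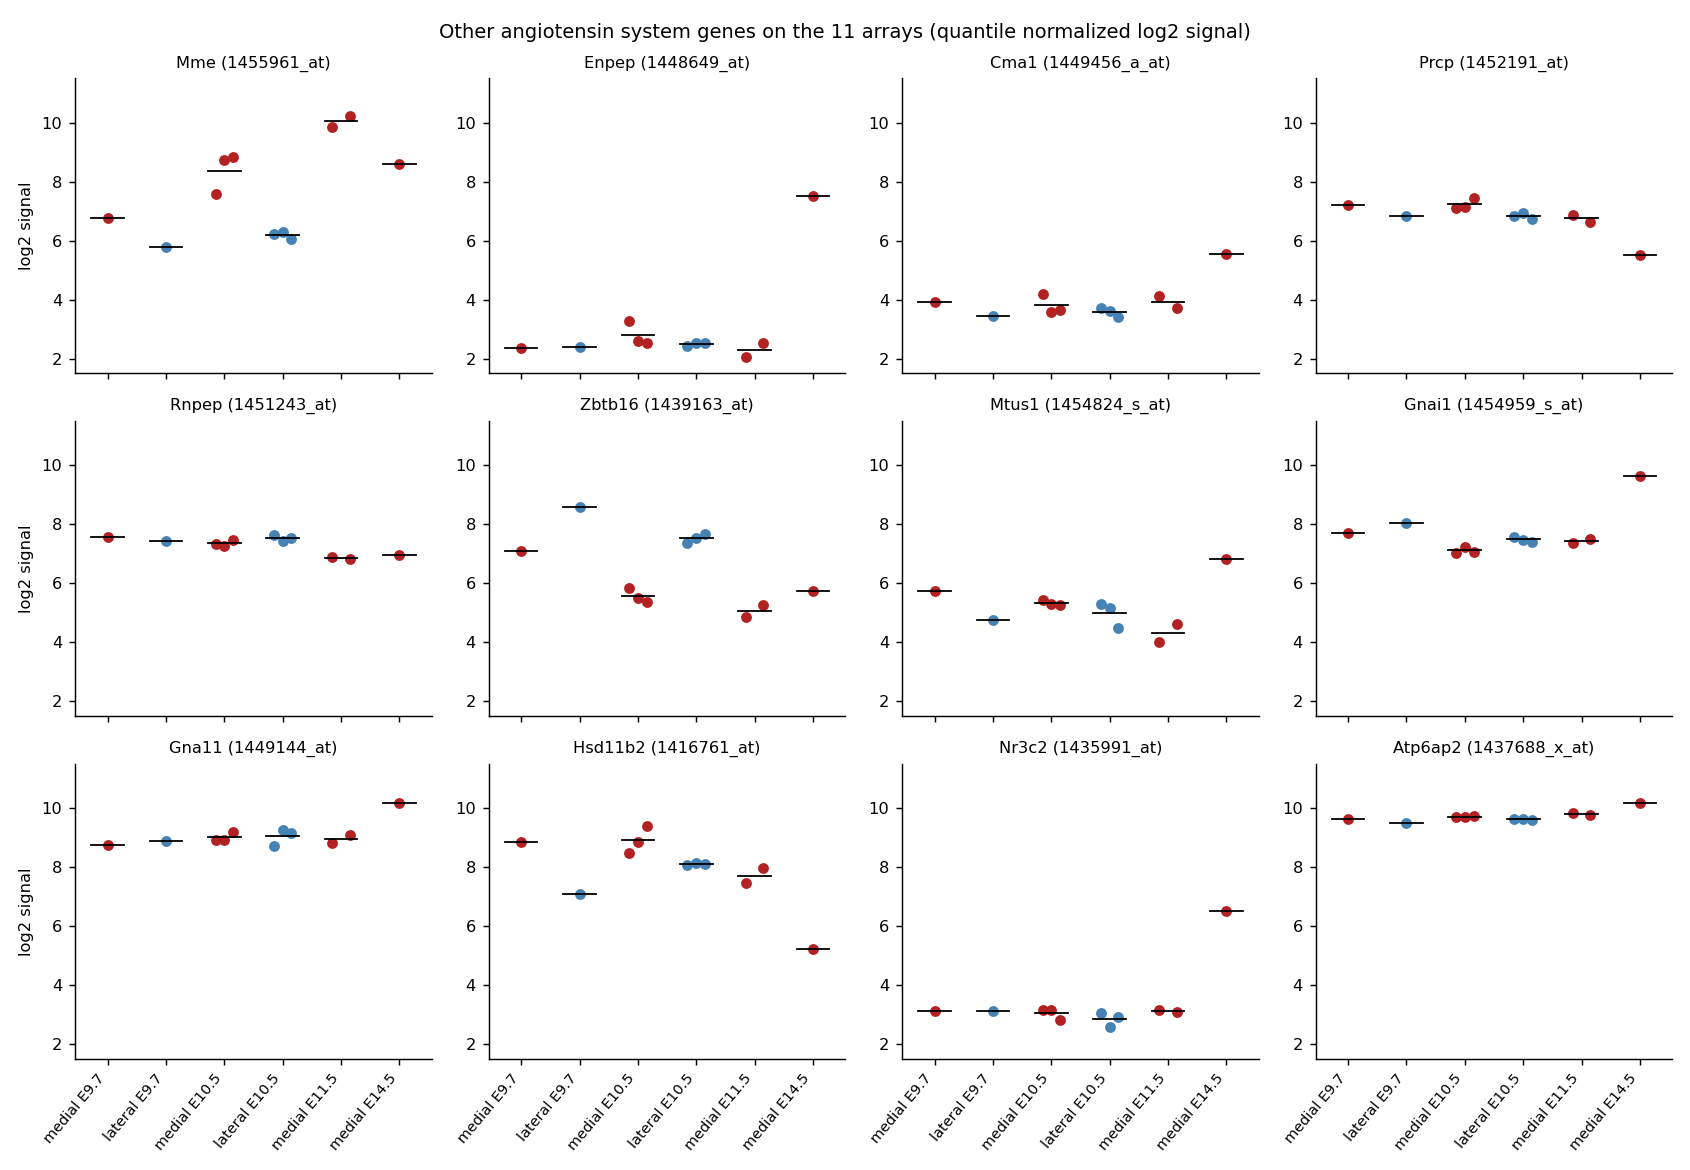
Quantile normalized log2 signal of 12 further angiotensin system genes on each array (points; red medial, blue lateral; black lines are group means). Mme separates medial from lateral arrays and peaks at E11.5, Zbtb16 is lower in medial tissue, and Enpep and Nr3c2 are above background on the E14.5 array alone.

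The genes most like Agtr2 were sought by Pearson r over the 11 arrays among 395 named genes with an SD of at least 1 and signal above the median on at least 2 arrays. The leading 10 had r of 0.984 to 0.995, and 131 of the 395 exceeded 0.9, so a profile that separates the 3 later arrays from the 8 earlier ones is common. In order they were Itga4, Mymx, Rbm24, Erbb3, Anxa1, Fgf18, Megf10, Ttn, Lhfp and Celf2. Mymx is a muscle cell fusion protein, Ttn is titin, the giant sarcomere protein, Rbm24 a splicing regulator of muscle, Megf10 a receptor of muscle satellite cells, and Itga4 an integrin subunit. No muscle role is given here to Erbb3, Anxa1, Fgf18, Lhfp and Celf2, so the 10 are not read as a muscle list. Among the 10, Spearman's rho with Agtr2 was highest for Erbb3 (0.945), Lhfp (0.873) and Celf2 (0.845). It was lowest for Rbm24 (0.445) and Ttn (0.509). Itga4 had group means of 5.66 to 5.85 in the E9.7 and E10.5 groups, 8.30 at medial E11.5 and 9.58 at E14.5. Mymx had 2.70 to 3.09, 6.92 and 9.54 in the same order. The set depends on the measure: 6 of the 10 were kept without the arrays of low median, 5 with group means and 1 with Spearman's rho.

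**Figure D4:**
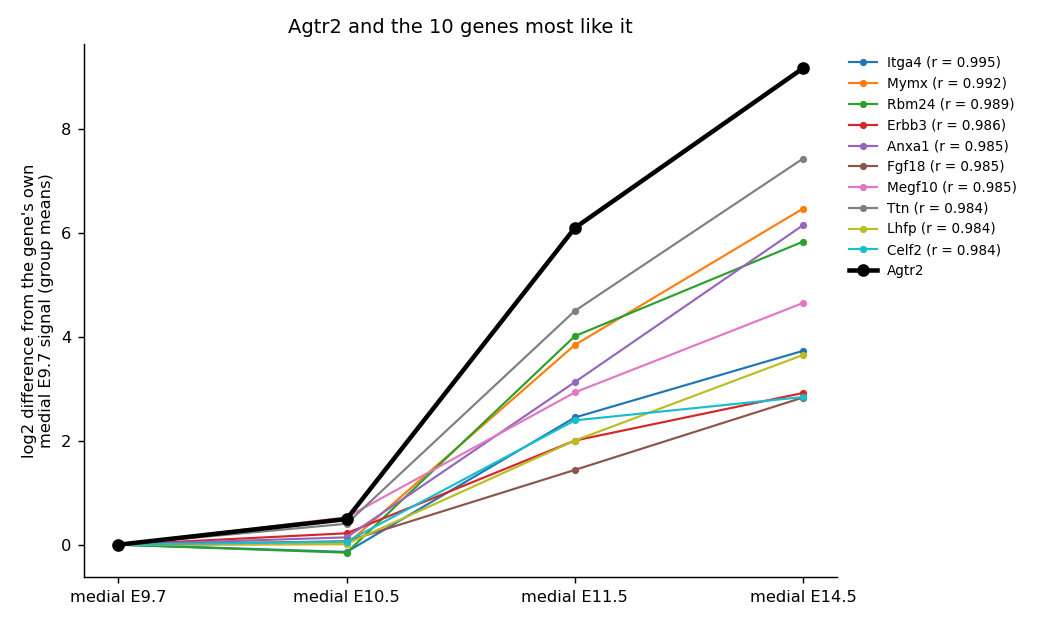
Log2 difference of each gene from its own medial E9.7 signal (group means of quantile normalized values) for Agtr2 (thick black) and the 10 genes most like it over the 11 arrays; the stages are spaced evenly, not by days. All lie below 1 at E10.5 and above it at E11.5 and E14.5; the E9.7 signals of Agtr2, Mymx, Rbm24, Anxa1, Fgf18 and Ttn are below background, so their differences are not exact.

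Markers of several cell types moved with Agtr2. Of 7 tested markers of differentiated muscle 5 rose at medial E11.5 relative to E10.5, and none fell. Their summed linear signal was 190 at medial E9.7, 205 to 264 at medial E10.5, 3858 to 5139 at medial E11.5 and 39724 at E14.5, with 5, 4, 7 and 8 of the 8 markers above background on every array of the group. All 8 were at least 2-fold higher at E14.5 than at E11.5, with a median log2 difference of 4.83.

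Muscle precursor markers rose in 2 of 3 tested, with sums of 775 to 842 at medial E11.5 and 117 to 136 at medial E10.5. Myod1, a determination factor of skeletal muscle, had log2 signals of 8.26 and 8.73 at medial E11.5 and 4.10, 4.44 and 4.56 at medial E10.5. Connective tissue and tendon markers had 2 of 6 higher and 1 lower, with sums of 5063 to 5899 at medial E10.5, 7063 to 8807 at medial E11.5 and 17876 at E14.5. Col3a1 was the brightest of this list on every array. Its log2 signals were 11.97, 12.04 and 11.99 at medial E10.5, 12.16 and 12.48 at medial E11.5 and 13.20 at E14.5. Pericyte and smooth muscle markers had 1 of 5 higher and 1 lower, and sums of 1313 to 2066 at medial E10.5, 3702 to 5082 at medial E11.5 and 7948 at E14.5. Most of that sum at E11.5 was Acta2, smooth muscle actin, with log2 signals of 11.49 and 11.89 at medial E11.5 and 6.85, 6.34 and 7.03 at medial E10.5. The pericyte marker Rgs5 went the other way, with 6.71 and 6.50 at medial E11.5 and 9.20, 9.10 and 9.51 at medial E10.5. Of the arch mesenchyme markers 2 of 6 were higher and 4 lower at medial E11.5 than at medial E10.5. Among them Tcf21, a mesenchymal transcription factor, had 8.65 and 8.49 at medial E11.5 and 5.44, 5.55 and 5.25 at medial E10.5. At E14.5 Tcf21 was lower again, at 6.42, while Agtr2 was higher. Of the 4 lower markers, Msx1 had 7.24 and 7.31 at medial E11.5, 10.36, 10.94 and 10.94 at medial E10.5 and 5.80 at E14.5. The sums of this list were 6819 to 7679 at medial E10.5, 3934 to 4489 at medial E11.5 and 3037 at E14.5. Macrophage markers had 1 of 3 tested higher, with sums of 175 to 193 at medial E10.5, 265 to 294 at medial E11.5 and 593 at E14.5. Glia sums were 77 to 94 at medial E10.5, 98 to 101 at medial E11.5 and 251 at E14.5. None of the 2 tested glia markers was called at E11.5. The sums for muscle, connective tissue, macrophages, glia, and pericytes with smooth muscle (mostly Acta2 at E11.5) were thus higher at each stage after E10.5, as was Agtr2. Single markers within a list differed in direction. Epithelium sums did not follow this order, at 2064 to 2335, 1013 to 1020 and 5291, and 5 of 6 markers were lower at E11.5. Nor did those of arch mesenchyme, endothelium (928 to 974, 658 to 748 and 799) and neurons (736 to 977, 479 to 581 and 787). The same held for cartilage (2911 to 3522, 1723 to 2486 and 416) and red cells (17147 to 19797, 17817 to 18537 and 5708). The part of any of these cells in the Agtr2 signal was not tested.

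**Figure D5:**
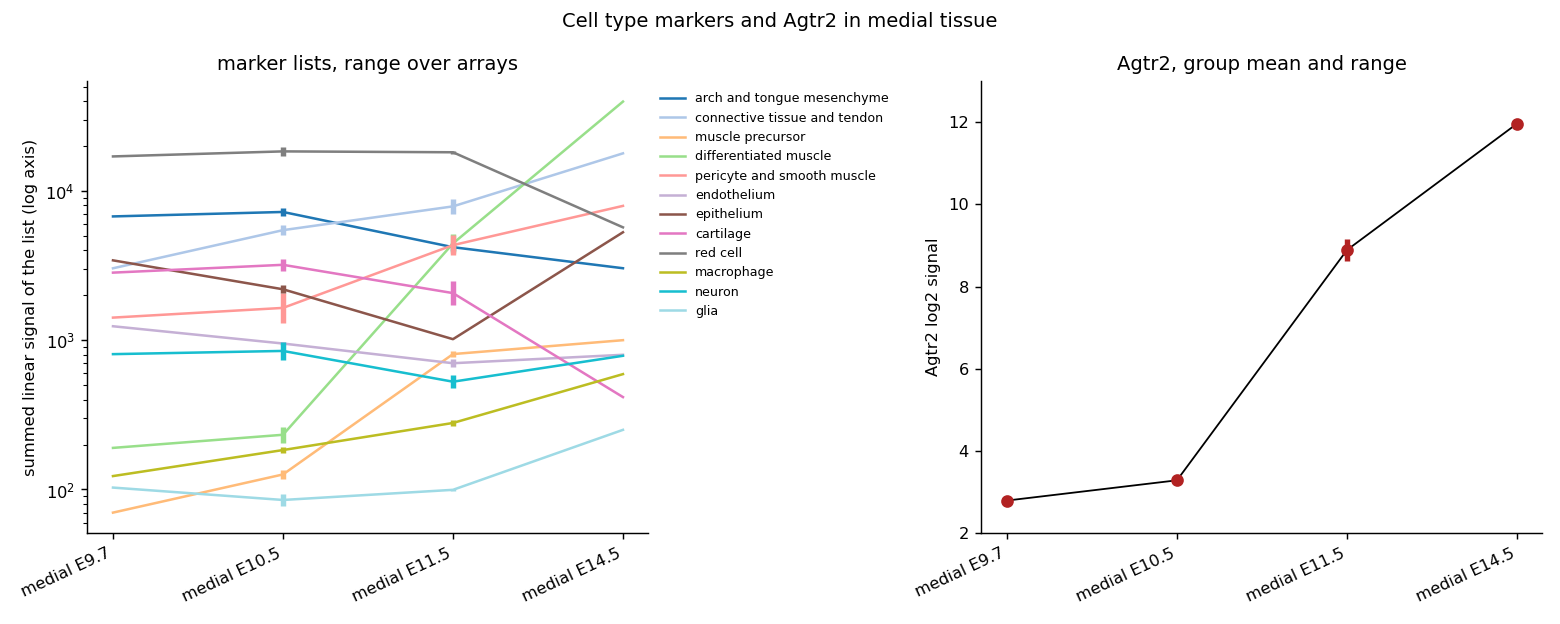
Left, summed linear signal of the markers of 12 cell types in medial tissue on a log axis (bars span the lowest and highest array, lines join their geometric mid-points). Right, Agtr2 log2 signal in the same groups (points are group means, bars the range of arrays); stages are spaced evenly. The differentiated muscle sum reaches 39724 at E14.5 and the arch mesenchyme sum 3037, a list of which 2 of 6 markers were higher at E11.5 and 4 lower.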

How the data were processed

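RNA of 11 samples was measured on Affymetrix arrays; per the labels, 3 ug of total RNA was turned into biotinylated cRNA. The authors deposited log2 signals made with Affymetrix Expression Console 1.1, per the submitters' processing notes; the algorithm is not given in the sources used here, and the log base was read from the range of the values. The deposited values differed in scale between arrays and were quantile normalized here. Probe sets were named by the table pairing them with genes (34754 matched to RefSeq by Entrez ID, 932 with several symbols, 9211 with none), each gene (18194 in all) taking its probe set of highest mean. The filter kept genes that reached the 50th percentile of all values (4.86) on 2 or more of the 8 replicated arrays. Limma 3.58.1 in R 4.3.3 fitted 6 group means (5 residual degrees of freedom), with Benjamini-Hochberg adjustment and a threshold of 0.05; the procedure was tested on simulated data. Where 1 array stood on a side, genes were kept when any array of either group reached 4.86. A gene then counted when it lay 2-fold or more outside the range of the opposite group. Named were every member, list genes called or counted, enzymes and receptors for their level, and the 10 genes most like Agtr2; predicted transcripts were left out of these. Itga4 and Mymx were given values as the first of these. Alternatives were other scalings, filters, probe set summaries, variance models, the replicate block, control-signal groups and leaving out arrays. The members and lists were chosen with earlier results of these data known. The number of arrays limits the precision.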

Additional observations from a re-analysis of the deposited data

Results flagged for a closer look

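Agtr2 differed between medial and lateral tissue in opposite directions at the 2 stages: 0.46 on the log2 scale at E10.5 and -0.09 at E9.7, with every array of E10.5 on one side and the E9.7 pair on the other, a difference of 0.56. All these signals were below the olfactory receptor percentile, so the directions are not read as a difference between the pieces, and on deposited values the E10.5 difference was -0.32, the sign of E9.7. Agtr1a likewise had medial minus lateral values of -0.65 at E10.5 and 0.24 at E9.7, a difference of -0.89, on signals above background. Plcb1, a phospholipase downstream of the type 1 receptor, had E10.5 minus E9.7 values of 0.57 in medial and -0.36 in lateral tissue, a difference of 0.93. None of these differences was tested, since each E9.7 piece has 1 array.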

How the results depend on the processing

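Agtr2 was higher at medial E11.5 than at medial E10.5 under each alternative run. That difference was 4.79 on deposited values, 5.40 with arrays centred on their medians, 5.82 without the arrays of low median, 5.81 within 1 control-signal group, and 5.34 to 5.86 with single arrays left out. E14.5 minus E11.5 was 4.83 on deposited values, 3.47 centred, 2.81 without the arrays of low median and 2.81 to 3.33 with single arrays left out. Medial minus lateral Agtr2 at E10.5 was -0.32 on deposited values, 0.56 with array weights, 0.51 with the control-signal group as a fixed effect and 0.40 to 0.55 with single arrays left out, all on signals below background; medial E10.5 minus E9.7 was -0.22 on deposited values. Genes called between medial and lateral E10.5 tissue numbered 2 on deposited values, 358 centred, 2833 with array weights, 1254 with the control-signal group and 308 to 605 with single arrays left out, against 554; those of the wider list numbered 0, 8 and 6 (deposited, weights, control-signal group) and 2 to 3, against 2. Between medial E11.5 and E10.5 the genes called numbered 1 on deposited values, 455 centred, 482 with the compared groups alone, 2182 with the control-signal group and 597 to 801 with single arrays left out, against 828. Those of the wider list numbered 0 on deposited values, 1 with the compared groups alone, 2 each when centred, without the filter, with array weights and without the arrays of low median, and 0 to 3 with single arrays left out, against 4. Genes at least 2-fold apart between medial E10.5 and E9.7 numbered 57 on deposited values, 203 without the arrays of low median and 134 to 203 with single arrays left out, against 117; the leave-out ranges were 174 to 271 for lateral tissue (158) and 2197 to 2664 for E14.5 against E11.5 (1833), where fewer arrays must be exceeded. Of the 10 genes most like Agtr2, 1, 5 and 6 were kept with Spearman's rho, group means and without the arrays of low median. Reversed in sign were Agt between pieces at E10.5 (-1.17 deposited, -0.039 centred, -0.017 weights, -0.37 control-signal group, -0.38 without the arrays of low median or medial E10.5 replicate 1 alone, -0.15 without lateral replicate 2, highest 0.34 without medial replicate 3), Ace (-0.89 deposited, -0.039 weights), Hsd11b2 (-0.18 deposited) and Mtus1 (-0.83 deposited). Zbtb16 by another probe set was 0.094 at E11.5 against E10.5, and Prcp and Mme were 0.30 and 0.28 at E14.5 against E11.5 on deposited values. The causes were not tested. The replicate numbers did not pair the E10.5 samples: same-numbered medial and lateral arrays had deviations correlated at 0.13, -0.29 and 0.48. With the replicate block the medial minus lateral calls numbered 779; E11.5 against E10.5 gave 868 calls and an Agtr2 difference of 5.59, Hsd11b2 was called between pieces (adjusted p = 0.0323 by limma) and Rnpep was not called with stage (adjusted p = 0.0716).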
